A study of Homo sapiens with 16 samples.

Results

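The genes described here are 50 genes of mitosis and cytokinesis, listed by symbol from their textbook roles. All 50 were found among the 58051 genes of the count table, and all 50 passed the filter on low counts in every comparison. The RNA came from LNCaP, a cell line of human prostate cancer with the character of luminal epithelium, at passage 20 in every group. Cells in the first experiment received Allstar control siRNA (siCtrl, n = 4 libraries) or siRNA against XBP1 (siXBP1, n = 4) and were kept for 2 days. Cells in the second experiment received DMSO (Vehicle, n = 4) or 10 µM MKC8866 (n = 4), an inhibitor of the IRE1α RNase, for 24 h. The cells of all 16 libraries then received 30 nM thapsigargin for 3 h, which blocks the ER calcium pump and causes ER stress, so no group was free of stress. The knockdown rests on 1 purchased XBP1 siRNA reagent, and its effects beyond XBP1 cannot be told apart from those of XBP1 loss. Nothing in the labels says that the 4 libraries of a group came from separate cultures. The authors call them independent samples and experimental replicates, without saying whether the cultures were separate. The p-values therefore measure the spread between libraries, which may be technical.

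Cells enter mitosis when CDK1 is activated by its cyclins, align their chromosomes on the spindle under the watch of the spindle assembly checkpoint, and separate them once the anaphase-promoting complex (APC/C) has marked securin and the B-type cyclins for destruction. A contractile ring, scaffolded by anillin, then divides the cytoplasm. The mRNAs of these proteins are periodic, low in G1 and high in G2 and mitosis, and they are switched on together by the MuvB complex with MYBL2 and FOXM1 and switched off by the DREAM complex. Both act through a short promoter element, the cell cycle genes homology region (CHR), and many of these promoters also carry CCAAT boxes bound by NF-Y. In a growing culture the summed level of these mRNAs therefore moves with the share of cells in G2 and mitosis. In RNA from whole cultures, fewer cells in mitosis and less of an mRNA per cell cannot be told apart.

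The promoters of 4 genes show matches to both kinds of element and stretches without a match. They are printed because the data set these genes apart from one another: ANLN and CENPE were lower after the knockdown, CCNB1 and KIF18A higher. Each stretch runs from 110 bases before to 10 bases after the RefSeq start on GRCh38.p14, and the capitals mark matches to the CHR (TTTGAA or TTCGAA) or to the CCAAT box (CCAAT), on either strand. ANLN lies at chr7:36389752-36389871 on the plus strand, CENPE at chr4:103198334-103198453 on the minus strand, CCNB1 at chr5:69167040-69167159 on the plus strand and KIF18A at chr11:28108147-28108266 on the minus strand.
ANLN: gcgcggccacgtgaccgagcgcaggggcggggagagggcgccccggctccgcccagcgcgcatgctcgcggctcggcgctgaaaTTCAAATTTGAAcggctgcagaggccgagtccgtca
CENPE: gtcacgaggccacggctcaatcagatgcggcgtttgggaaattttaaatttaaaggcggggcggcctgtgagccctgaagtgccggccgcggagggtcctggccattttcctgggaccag
CCNB1: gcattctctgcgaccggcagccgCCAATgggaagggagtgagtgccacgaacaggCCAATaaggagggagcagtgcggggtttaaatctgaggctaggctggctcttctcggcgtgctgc
KIF18A: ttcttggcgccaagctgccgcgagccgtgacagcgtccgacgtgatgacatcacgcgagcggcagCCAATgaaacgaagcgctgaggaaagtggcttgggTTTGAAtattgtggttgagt

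ANLN carries 2 CHR matches side by side on opposite strands, the nearer beginning 20 bases before the start, and no CCAAT match in this stretch. CENPE has no match to either pattern here or in the rest of its 300-base window. Other spellings of the elements were not searched. CCNB1 carries 2 CCAAT matches, and KIF18A 1 of each element. The 4 stretches do not stand for all genes of their direction. In the same stretch BUB1, also lower, had 1 CHR and 2 CCAAT matches, and MAD2L1, also lower, had no match. Of genes also higher, CENPA had 1 CHR match and no CCAAT match, and TOP2A 2 CCAAT matches and no CHR match. Windows of 300 bases were found for 42 of the 50 genes, 54 windows in all, and none was found for BUB3, TTK, AURKA, BIRC5, TPX2, RACGAP1, UBE2C and FOXM1. The CHR stood in 36 of the 54 windows (66.7%, 95% Wilson interval 53.4 to 77.8%) and in 16.4% of all 35116 windows of the table. The CCAAT box stood in 39 windows (72.2%, 59.1 to 82.4%, against 34.6% of all), and both elements together in 28 (51.9%, 38.9 to 64.6%, against 6.38%). The XBP1 recognition core TGACGTG, a motif added after the others, stood in 2 of the 54 windows, those of CEP55 and DLGAP5 (3.70%, 1.02 to 12.5%, against 1.97%). A match or its absence describes these letters only. Some genes have more than 1 window, and these can overlap, so the intervals cover counting error only.

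**Figure D1:**
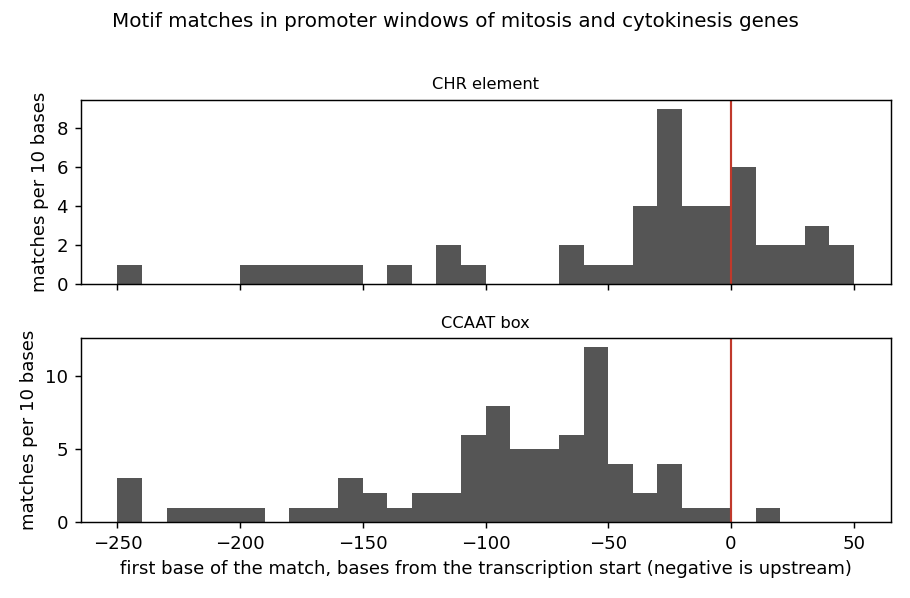
Position of the first base of each CHR match (upper panel, 50 matches) and CCAAT match (lower panel, 74 matches) in the promoter windows, in bases from the RefSeq transcription start, with the red line at the start. CHR matches had a median position of -24.5 and CCAAT matches of -85.5, further upstream.

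Of the 50 CHR matches, 37 (74.0%) began within 50 bases of the start, a stretch that makes up 33.3% of the window and held 27.3% of the matches over all windows. This stretch was chosen after the positions were seen.

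Library depth was between 28713607 and 34509488 counted fragments, and levels are given as CPM (counted fragments of a gene per 1000000 of its library) after TMM scaling of all 16 libraries. XBP1 itself stood at 382, 426, 365 and 362 CPM in siCtrl and at 51.5, 54.2, 54.4 and 53.4 CPM in siXBP1, with all siXBP1 libraries far below (log2 fold change -2.85 ± 0.05 SE, adjusted p = 2.92e-20). By edgeR, XBP1 was higher in Vehicle than in siCtrl (0.39 ± 0.05, adjusted p = 1.98e-06). With MKC8866 it was higher than in Vehicle (0.20 ± 0.04, adjusted p = 0.00493). Counts per gene do not separate spliced from unspliced XBP1 mRNA, so they do not show the inhibition of the RNase. The luminal markers of the line were present in siCtrl, from 173 CPM for KLK2 to 1079 CPM for FOLH1. The basal, blood and endothelial markers KRT5, TP63, PTPRC and PECAM1 had siCtrl means of at most 0.198 CPM, VIM 3.14 CPM and COL1A1 29.6 CPM.

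Every gene was well expressed, with a lowest count of 247 in any library. Per kb of gene length, CDC20, the APC/C activator that the checkpoint restrains, had the highest level in siCtrl at 53.6 CPM per kb, followed by CDK1 at 47.7. KIF18A, a kinesin that shortens the tips of kinetochore microtubules, had the lowest at 2.00 CPM per kb, followed by the midbody kinesin KIF14 at 3.73. The median over the 50 genes was 15.1 CPM per kb. The spread among the 4 siCtrl libraries was small, with a median coefficient of variation of 4.02% and a range from 0.88% to 10.4%.

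To learn how depletion of XBP1 affects these genes, siXBP1 was compared with siCtrl. After the knockdown, 20 of the 50 genes were higher and 4 lower at an adjusted p under 0.05, among them CCNB1, TOP2A, KIF18A and CENPA on the higher side and ANLN, CENPE, MAD2L1 and BUB1 on the lower. Over all 21021 genes tested, 16.5% were called higher and 18.2% lower, so the 40% of these genes called higher exceeded the share over all genes and the 8% called lower fell short of it. The median log2 fold change was 0.08, against 0.00 over all genes. Of the 50 values 39 were positive, against 10668 of 21021 over all genes. Groups did not overlap for 23 genes on the higher side (15.6% of all genes) and 5 on the lower (16.7% of all genes). The changes were mostly small. Those called higher ranged from 1.09-fold to 1.43-fold. The median standard error was 0.05 in the 50 genes and 0.09 over all genes, so the shares called compare genes of unlike precision. Among genes with at least 10 counts in every library, 3664 of 16620 were higher and 3683 lower. In that fit 23 of the 50 genes were higher and 4 lower.

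**Figure D2:**
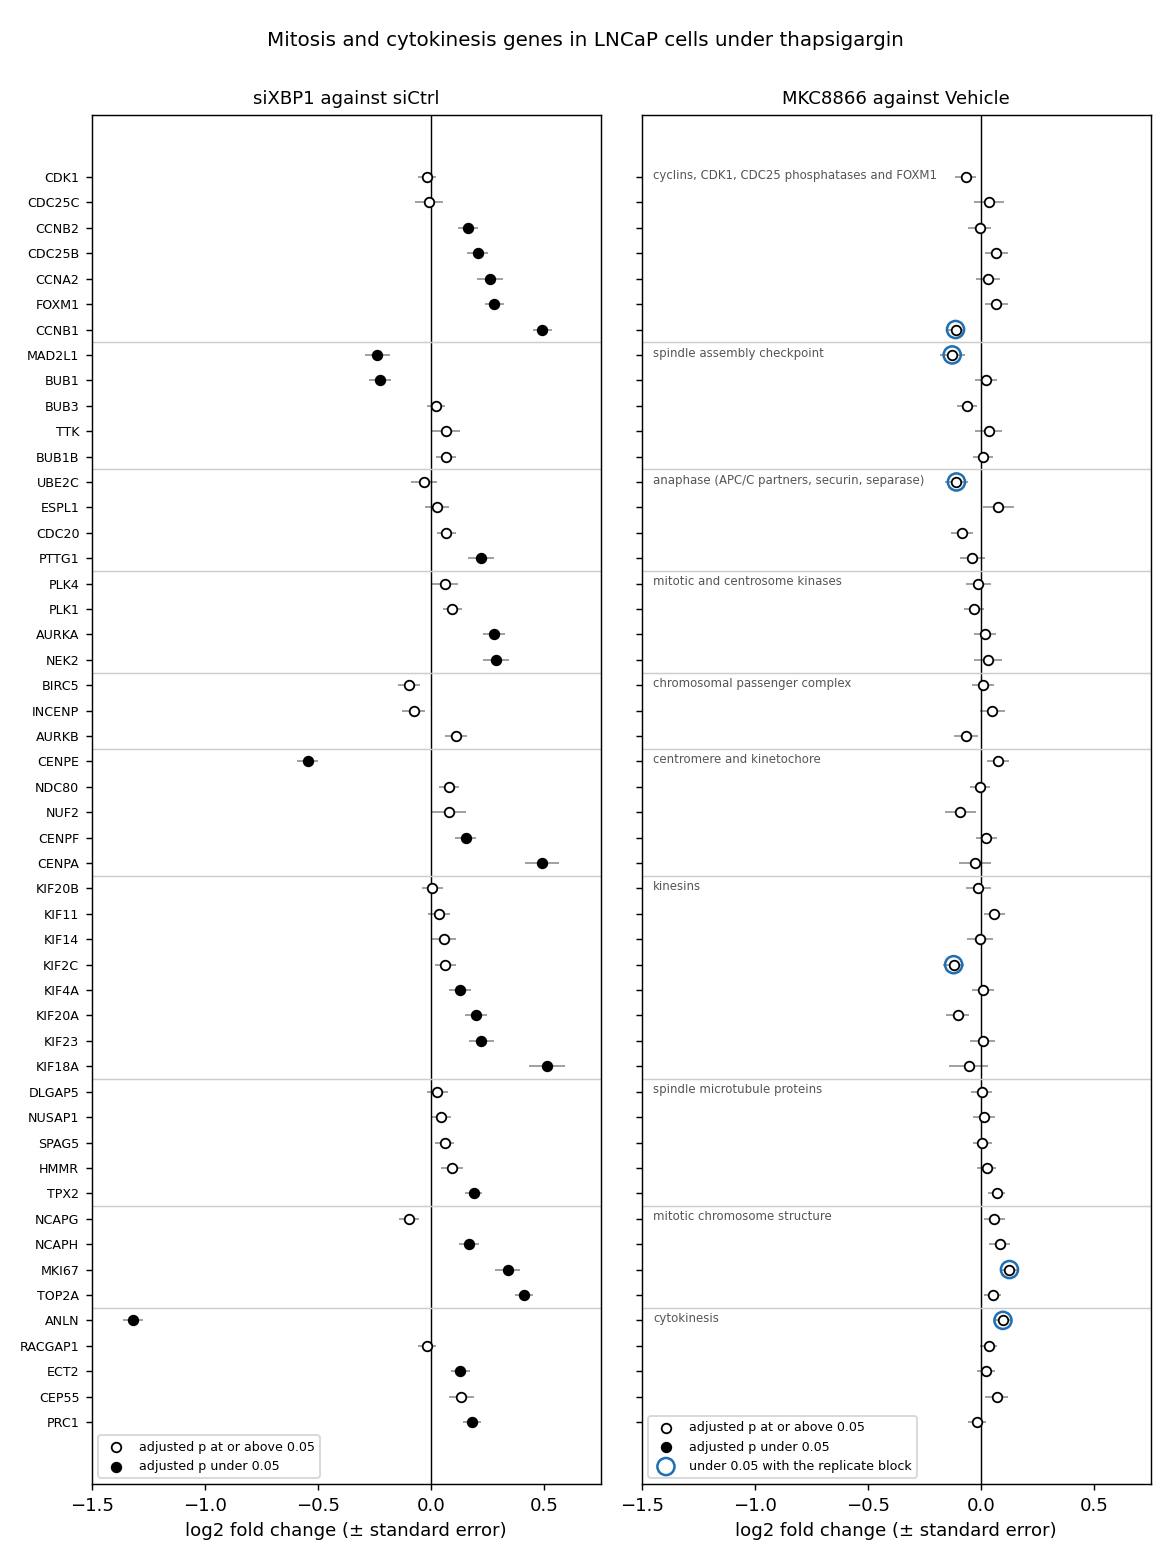
Log2 fold change with its standard error (horizontal bars) for the 50 genes, ordered by role, in siXBP1 against siCtrl (left) and MKC8866 against Vehicle (right), with n = 4 libraries in each group. Filled points had an adjusted p under 0.05, and blue rings mark those under 0.05 when the replicate number was a block. ANLN at -1.32 stands apart on the left, and every value on the right lies between -0.13 and 0.13.

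ANLN encodes anillin, the scaffold of the contractile ring. It stood at 129, 124, 125 and 127 CPM in siCtrl and at 50.2, 49.2, 53.0 and 50.6 CPM in siXBP1. The groups were far apart, and the 4 libraries within each lay close together. The level was 2.49-fold lower (log2 fold change -1.32 ± 0.04, adjusted p = 3.31e-16), more than 10 scaled median absolute deviations (-10.2) from the median of the 50 genes. The scaled deviation used was that of the 50 genes, 0.14 on the log2 scale, and over all genes tested it was 0.30. The ANLN transcript overlaps MATCAP2 (4928 fragments over all 16 libraries), and the counting took no account of strand.

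CENPE encodes the kinetochore kinesin that carries chromosomes to the spindle equator. Its level was 59.9, 61.0, 56.6 and 58.9 CPM in siCtrl and 40.5, 39.7, 42.5 and 39.8 CPM in siXBP1. All siXBP1 libraries lay below all siCtrl libraries, by 1.46-fold (log2 fold change -0.55 ± 0.05, adjusted p = 3.45e-09), or 4.55 scaled deviations below the median of the 50 genes.

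The other genes called lower, BUB1 and MAD2L1, both belong to the spindle assembly checkpoint. BUB1, the kinase that recruits checkpoint proteins to kinetochores, stood at 49.4, 51.5, 48.1 and 48.5 CPM in siCtrl and at 43.9, 42.9, 40.1 and 42.5 CPM in siXBP1, without overlap (log2 fold change -0.23 ± 0.05, adjusted p = 5.81e-04). MAD2L1, the MAD2 protein that holds CDC20 inactive, stood at 40.7, 41.4, 41.1 and 44.6 CPM in siCtrl and at 32.4, 35.0, 39.4 and 35.9 CPM in siXBP1. Its groups also did not overlap, although siXBP1 library 3 came close to siCtrl (log2 fold change -0.24 ± 0.06, adjusted p = 0.00222). The remaining checkpoint genes were not called, with log2 fold changes of 0.07 for BUB1B, 0.06 for TTK and 0.02 for BUB3.

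On the higher side, CCNB1 encodes cyclin B1, the partner of CDK1. It stood at 91.9, 89.2, 94.6 and 92.8 CPM in siCtrl and at 126, 129, 135 and 130 CPM in siXBP1. The groups were well apart, and the rise was 1.41-fold (log2 fold change 0.49 ± 0.04, adjusted p = 2.66e-09). TOP2A, the topoisomerase that untangles sister chromatids, stood at 144, 139, 137 and 142 CPM in siCtrl and at 186, 185, 193 and 184 CPM in siXBP1. It too rose without overlap (log2 fold change 0.41 ± 0.04, adjusted p = 1.50e-08).

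KIF18A stood at 9.84, 9.37, 8.44 and 9.69 CPM in siCtrl and at 14.8, 13.1, 12.1 and 13.5 CPM in siXBP1. Every siXBP1 library was above every siCtrl library (log2 fold change 0.51 ± 0.08, adjusted p = 2.15e-05). CENPA, the histone H3 variant that marks centromeres, stood at 9.56, 9.35, 9.01 and 9.77 CPM in siCtrl and at 12.4, 14.1, 13.9 and 12.7 CPM in siXBP1, again without overlap (log2 fold change 0.49 ± 0.07, adjusted p = 1.50e-05). Both genes overlap a neighbour on the genome, KIF18A with METTL15 and CENPA with SLC35F6, and reads of such pairs are uncertain in counts made without strand.

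**Figure D3:**
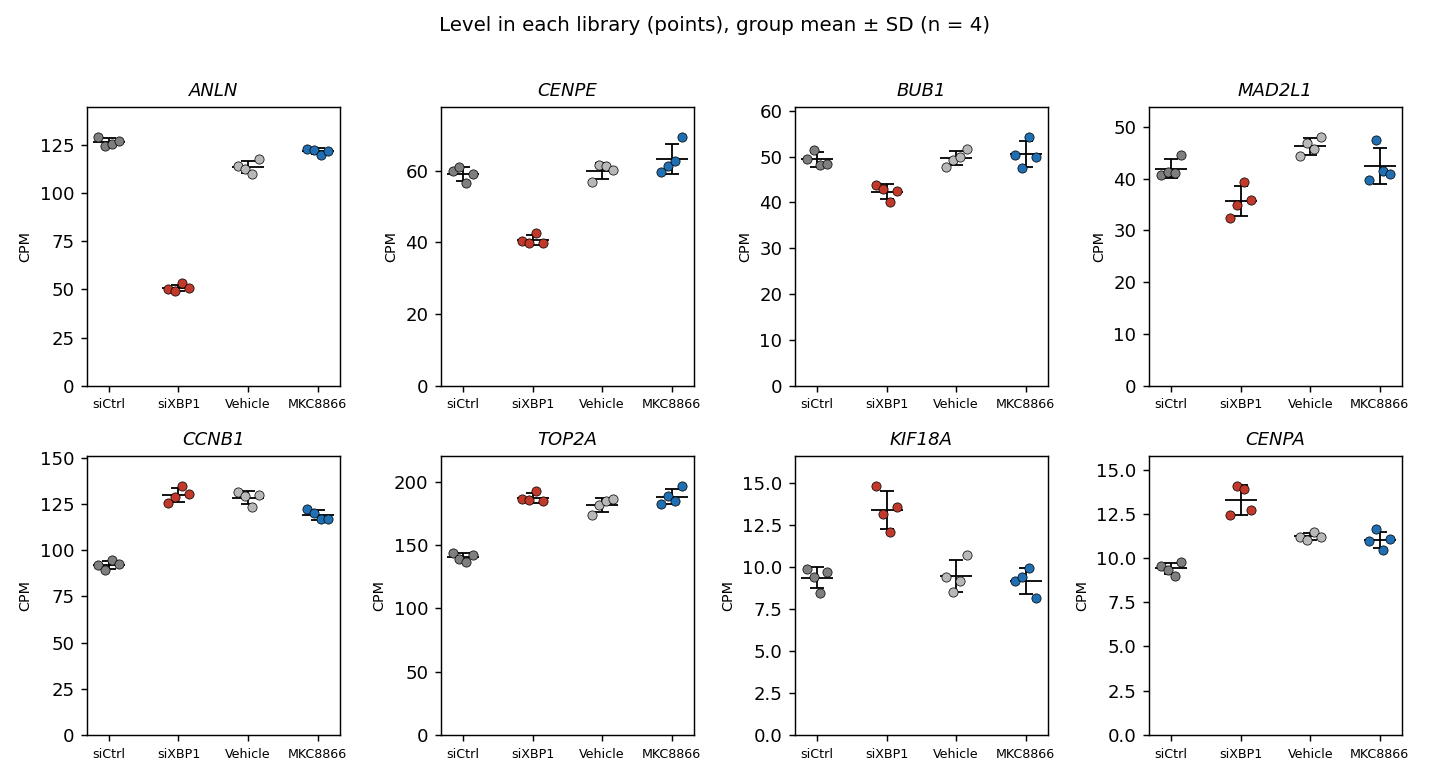
Level in CPM of 8 genes in each of the 16 libraries (points), with the group mean and SD (bars, n = 4), on axes that start at 0. ANLN, CENPE, BUB1 and MAD2L1 are lowest in siXBP1, whereas CCNB1 and TOP2A are lowest in siCtrl and have siXBP1 points beside those of Vehicle.

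The roles hold only 3 to 8 genes each, and over all genes 16.5% were called higher and 18.2% lower. By role, the genes that drive entry into mitosis were higher in 5 of 7 cases. Besides CCNB1, these were FOXM1, the transcription factor of the G2/M program (0.28 ± 0.04), CCNA2 (0.26 ± 0.06), the phosphatase gene CDC25B (0.21 ± 0.05) and CCNB2 (0.16 ± 0.04). CDK1 (-0.02 ± 0.04) and CDC25C (-0.01 ± 0.06) were not called. Among mitotic and centrosome kinases, NEK2 (0.29 ± 0.06) and AURKA (0.28 ± 0.05) rose, while PLK1 (0.09 ± 0.04) and PLK4, the kinase of centriole duplication (0.06 ± 0.06), were not called.

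The anaphase genes gave 1 call of 4, for securin, PTTG1 (0.22 ± 0.06), whereas CDC20 (0.07), separase, ESPL1 (0.03), and the APC/C-associated E2 enzyme UBE2C (-0.03) were not called. In the chromosomal passenger complex, which corrects faulty attachments, AURKB stood at 0.11 ± 0.05, INCENP at -0.08 ± 0.05 and BIRC5 (survivin) at -0.10 ± 0.05. None of the 3 passed the edgeR test after adjustment, and 1 had an unadjusted p under 0.05 (42.1% of all genes did).

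In the kinetochore group, CENPF was called higher (0.15 ± 0.05) alongside CENPA, opposite to CENPE, and the microtubule-binding NDC80 and NUF2 (both 0.08) were not called. Of the 8 kinesins, 4 were higher: besides KIF18A these were KIF23 (0.22 ± 0.06), the motor of the centralspindlin complex, KIF20A (0.20 ± 0.05) and the chromokinesin KIF4A (0.13 ± 0.05). KIF11, which pushes the spindle poles apart, stood at 0.04 ± 0.05. Among spindle microtubule proteins TPX2, the activator of AURKA, was called (0.19 ± 0.04), and the other 4 ranged from 0.03 for DLGAP5 to 0.09 for HMMR.

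MKI67, the proliferation antigen Ki-67 that coats mitotic chromosomes, rose (0.34 ± 0.06), as did the condensin gene NCAPH (0.17 ± 0.04), whereas its partner in condensin I, NCAPG, stood at -0.10 ± 0.04 and was not called. Within the cytokinesis group ANLN went down while PRC1, which bundles the midzone microtubules (0.18 ± 0.04), and ECT2, the exchange factor that activates RhoA (0.13 ± 0.04), went up. CEP55 (0.13 ± 0.06) and RACGAP1 (-0.02 ± 0.04) were not called.

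Other lists of the cell cycle gave the following counts in the same comparison, where 16.5% of all genes tested were higher and 18.2% lower. Of 71 further G2/M and mitosis genes, 19 were higher and 14 lower, with a median log2 fold change of 0.00. The largest changes among them were those of PKMYT1 (-1.02), a kinase that inhibits CDK1, and DEPDC1B (-0.55). Of 46 G1/S and replication genes, 4 were higher and 27 lower, with a median of -0.19. CDC6, which loads the replicative helicase (-1.47), and RRM2, a subunit of ribonucleotide reductase (-1.38), changed most. Of 16 APC/C subunits and partners, 1 was higher (UBE2S, 0.73) and 3 lower (ANAPC4 the most, -0.46), with a median of -0.07.

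Among 18 regulators of the DREAM, MuvB, RB and E2F families, 2 were higher and 6 lower, with a median of -0.09. E2F4, the E2F of the DREAM complex, fell by 0.59 on the log2 scale, and MYBL2 rose (0.16 ± 0.04, adjusted p = 0.0045). Of 7 CDK inhibitors 3 were higher and 1 lower. CDKN1A, the CDK inhibitor p21, rose from 320, 346, 346 and 347 CPM in siCtrl to 396, 385, 376 and 393 CPM in siXBP1, without overlap (log2 fold change 0.19 ± 0.04, adjusted p = 4.45e-04). The luminal markers moved as well, 5 of 9 lower and none higher by edgeR (6 of 9 had an unadjusted p under 0.05), and none of the 3 tested markers of other cells was called (1 had an unadjusted p under 0.05). The part of any of these in the mitotic genes' values was not tested.

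**Figure D4:**
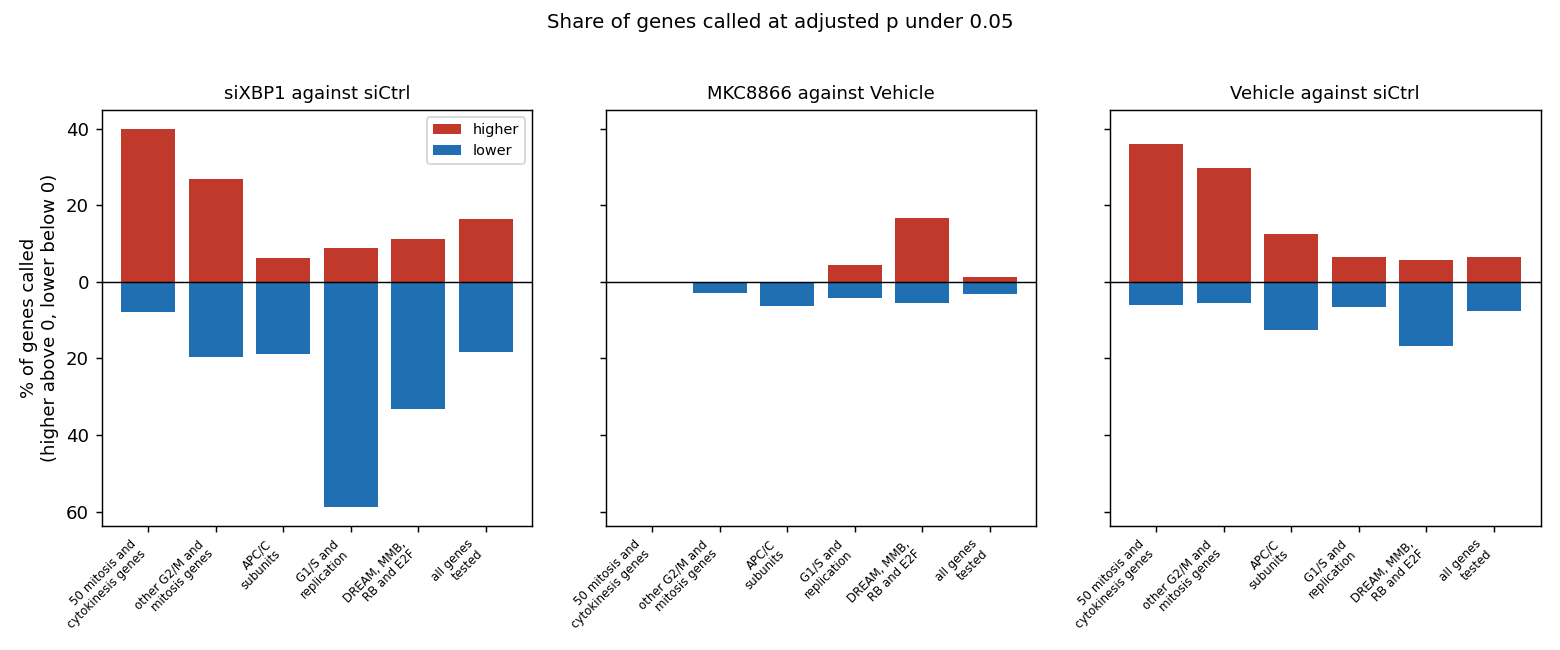
Share of genes called higher (red, above 0) and lower (blue, below 0) at an adjusted p under 0.05 in each list and over all genes tested, in siXBP1 against siCtrl, MKC8866 against Vehicle, and Vehicle against siCtrl. In the left panel 40% of the 50 genes were higher and 8% lower, while the G1/S and replication list shows 58.7% lower, and in the middle panel none of the 50 was called.

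To learn whether inhibition of the IRE1α RNase affected the same genes, MKC8866 was compared with Vehicle. None of the 50 genes was called higher or lower by edgeR, where 1.36% of all 21045 genes tested were higher and 3.11% lower. DESeq2 also called none, and 7 of the 50 had an unadjusted p under 0.05 (15.2% over all genes). The log2 fold changes ran from -0.13 to 0.13 around a median of 0.01, with a median standard error of 0.05, and the median over all genes was 0.00. Groups did not overlap for TPX2, MKI67 and ANLN on the higher side (4.03% of all genes) and for CCNB1 and KIF2C on the lower (5.15% of all genes).

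Libraries of the same number deviated together in this experiment, so the replicate number was also fitted as a block. For number 3 the correlation was weak (r = 0.102). It was below that of Vehicle 3 with MKC8866 1 (r = 0.159) and of Vehicle 1 with MKC8866 3 (r = 0.136). The pairing is therefore uncertain, and with it the calls that rest on the block. With the block, 2 of the 50 genes were higher (6% of all genes) and 4 lower (7.05% of all genes), shares near those over all genes. MKI67 stood at 145, 138, 150 and 143 CPM in Vehicle and at 154, 150, 154 and 170 CPM with MKC8866, above its Vehicle partner in each of the 4 pairs (log2 fold change 0.13, adjusted p = 0.115 without the block and 0.00106 with it). ANLN stood at 114, 112, 110 and 117 CPM in Vehicle and at 123, 122, 119 and 122 CPM with MKC8866, also higher in 4 of 4 pairs (log2 fold change 0.10, adjusted p = 0.215 without and 0.0131 with the block). Both differences were small.

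CCNB1 stood at 131, 129, 124 and 130 CPM in Vehicle and at 122, 120, 117 and 117 CPM with MKC8866, lower in 4 of 4 pairs (log2 fold change -0.11, adjusted p = 0.135 without and 0.00264 with the block). KIF2C, a kinesin that depolymerises microtubules, stood at 63.3, 66.8, 65.2 and 64.3 CPM in Vehicle and at 55.9, 59.8, 62.2 and 61.1 CPM with MKC8866, again lower in every pair (log2 fold change -0.12, adjusted p = 0.173 without and 0.0111 with the block). In both genes the groups were separate but close.

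The groups of the other genes called with the block overlapped. MAD2L1 stood at 44.4, 46.9, 45.7 and 48.1 CPM in Vehicle and at 39.7, 47.6, 41.5 and 40.9 CPM with MKC8866 (log2 fold change -0.13, adjusted p = 0.268 without and 0.0207 with the block). MKC8866 library 2 was above its partner, and without that library MAD2L1 was called in the unblocked fit as well (-0.20, adjusted p = 0.0184). UBE2C stood at 62.4, 66.1, 57.5 and 61.0 CPM in Vehicle and at 53.7, 60.0, 57.1 and 58.4 CPM with MKC8866 (log2 fold change -0.11, adjusted p = 0.307 without and 0.0349 with the block).

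In the other lists, without the block, the counts were as follows, where 1.36% of all genes tested were higher and 3.11% lower. In the further G2/M list 2 of 71 genes were lower, MIS12 (-0.51), a kinetochore component, and ZW10 (-0.25). The G1/S list had 2 of 46 lower, CDC6 the most (-0.64), and 2 higher, CCNE2 the most (0.22). Of the 18 DREAM, MuvB, RB and E2F regulators, 3 were higher, E2F2 the most (0.30), and 1 lower. Of the 16 APC/C subunits and partners 1 was lower, ANAPC13 (-0.23), and of the 7 CDK inhibitors 1 was lower, CDKN1B (-0.39). CDKN1A (-0.07 ± 0.04) and MYBL2 (0.06 ± 0.05) were not called. Of the 9 luminal markers 2 were higher, KLK3 the most (0.46), and 1 lower, KRT18 (-0.22). The part of these in the mitotic genes' values was not tested.

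Whether the responses to knockdown and to MKC8866 differed was tested as an interaction in all 16 libraries, which cannot be told apart from the difference between the experiments. The response to knockdown was higher than that to MKC8866 for 14 of the 50 genes (10.6% of all 20357 genes tested) and lower for 3 (12.7% of all genes), with a median difference of 0.09. On the higher side the differences in log2 fold change were led by CCNB1 (0.61 ± 0.05, adjusted p = 5.44e-10), KIF18A (0.57 ± 0.12, adjusted p = 6.07e-04), CENPA (0.52 ± 0.10, adjusted p = 1.24e-04) and TOP2A (0.36 ± 0.05, adjusted p = 3.64e-06). The 3 on the lower side were ANLN (-1.41 ± 0.05, adjusted p = 3.51e-18), CENPE (-0.62 ± 0.07, adjusted p = 2.36e-08) and BUB1 (-0.24 ± 0.07, adjusted p = 0.00663). For MAD2L1 the difference was -0.11 ± 0.08 (adjusted p = 0.393). The count on the higher side fell to 8, 8 and 9 without siCtrl library 1, MKC8866 library 1 and Vehicle library 3. Over all genes tested, 2139 of 20227, 1983 of 20244 and 1909 of 20250 were higher in these fits.

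The control groups of the experiments, which differ in transfection, in DMSO and in time, were set against each other to show where each baseline lay. Relative to siCtrl, Vehicle was higher for 18 of the 50 genes (6.34% of all 21092 genes tested) and lower for 3 (7.66% of all genes), with a median log2 fold change of 0.11 against 0.01 over all genes. Groups did not overlap for 18 genes on the higher side (7.86% of all genes) and 2 on the lower (9.09% of all genes). This comparison shares siCtrl with the knockdown and Vehicle with the inhibitor comparison, so the values are given side by side and not related to one another.

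The summed level of the 50 genes was 3440 to 3598 CPM in siCtrl, 3729 to 3787 CPM in siXBP1, 3793 to 3846 CPM in Vehicle and 3791 to 3950 CPM with MKC8866. The siCtrl libraries lay below all 12 others. Of the 50 genes, 30 had their lowest group mean in siCtrl and 24 their highest in siXBP1. These counts were not made over all genes, so they describe the 50 genes only.

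Between the controls, CCNB1 differed most, with the Vehicle values given above lying over all siCtrl values (log2 fold change 0.48 ± 0.04, adjusted p = 7.81e-09). In TOP2A, Vehicle stood at 173, 181, 185 and 186 CPM and MKC8866 at 183, 189, 185 and 197 CPM, both over the siCtrl range and about the siXBP1 range (Vehicle against siCtrl 0.37 ± 0.04, adjusted p = 3.30e-07). CENPA stood at 11.2, 11, 11.5 and 11.2 CPM in Vehicle, between siCtrl and siXBP1 without touching either (0.25 ± 0.07, adjusted p = 0.0202, and 0.0571, 0.0642 and 0.0533 without siCtrl library 3, Vehicle library 3 and Vehicle library 4).

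CCNA2, cyclin A2, stood at 30.0, 34.6, 35.3 and 37.5 CPM in siCtrl, 39.9, 40.2, 42.9 and 42.4 CPM in siXBP1, and 40.4, 46.9, 45.9 and 42.8 CPM in Vehicle. Here siXBP1 and Vehicle overlapped, and siCtrl lay under both (Vehicle against siCtrl 0.36 ± 0.06, adjusted p = 1.64e-04). CCNA2 overlaps EXOSC9 on the genome (18749 fragments over all 16 libraries), so its counts made without strand are uncertain. BUB1B, the checkpoint protein BUBR1, stood at 57.3, 57.6, 61.7 and 63.3 CPM in siCtrl, 62.2, 62.5, 63.5 and 63.6 CPM in siXBP1, and 76.5, 75.9, 73.4 and 75.5 CPM in Vehicle. It differed between the controls (0.33 ± 0.05, adjusted p = 1.23e-05) and was not called after the knockdown.

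MKI67 stood at 108, 136, 116 and 129 CPM in siCtrl, widely spread, and was higher in Vehicle (0.24 ± 0.05, adjusted p = 0.00263). In KIF18A the Vehicle values of 9.39, 8.49, 9.17 and 10.7 CPM and the MKC8866 values of 9.12, 9.37, 9.94 and 8.15 CPM lay about the siCtrl values, with siXBP1 alone above (Vehicle against siCtrl 0.02 ± 0.09). In CENPE, Vehicle stood at 56.8, 61.6, 61.2 and 60.3 CPM and MKC8866 at 59.7, 61.2, 62.5 and 69.4 CPM, so that siXBP1 alone was low (Vehicle against siCtrl 0.02 ± 0.05).

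In Vehicle 3 genes were lower than in siCtrl. ANLN was one, by much less than its fall after the knockdown (-0.15 ± 0.04, adjusted p = 0.0112). CDC25B stood at 62.2, 73.7, 69.4 and 67.5 CPM in siCtrl and 61.7, 56.5, 62.4 and 58.7 CPM in Vehicle, overlapping at 1 library (-0.19 ± 0.05, adjusted p = 0.0125, and 0.0593 without siCtrl library 2). ESPL1 stood at 34.4, 38.4, 40.3 and 36.4 CPM in siCtrl and 33.9, 29.4, 34.2 and 32.7 CPM in Vehicle, close but separate (-0.20 ± 0.06, adjusted p = 0.0240). The ESPL1 call was lost without siCtrl library 2 or 3 or Vehicle library 2 or 4, with adjusted p between 0.0544 and 0.111.

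**Figure D5:**
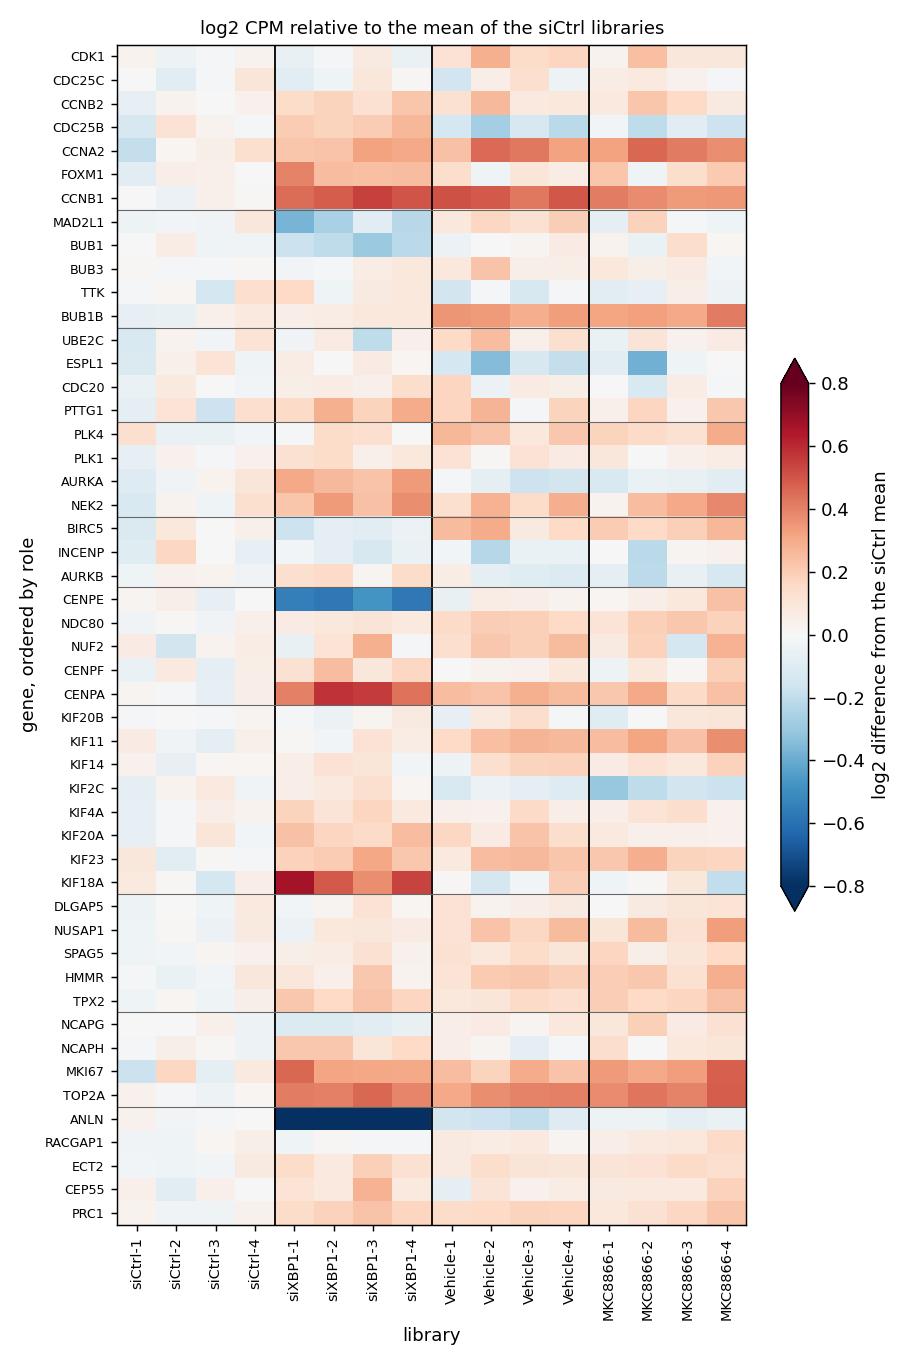
Log2 difference of each gene (rows, ordered by role) in each of the 16 libraries (columns) from the mean of the siCtrl libraries, from blue (lower) to red (higher), with values beyond ±0.8 drawn at the end colours. The ANLN row is past the end of the scale in the siXBP1 libraries, and CCNB1, TOP2A and MKI67 are red in siXBP1, Vehicle and MKC8866.

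Between the controls, 6.34% of all genes tested were higher and 7.66% lower. The further G2/M list had 21 of 71 genes higher and 4 lower, with a median of 0.07. The G1/S list had 3 of 46 higher and 3 lower, with a median of 0.03. STIL, a centriole duplication factor (0.58), and CDC25A (-0.70) changed most in these lists. The 16 APC/C subunits and partners had 2 higher and 2 lower, the 18 DREAM, MuvB, RB and E2F regulators 1 higher and 3 lower, and the 7 CDK inhibitors 2 higher and 2 lower. CDKN1A was lower in Vehicle (-0.21 ± 0.04, adjusted p = 3.65e-04), and MYBL2 was higher (0.14 ± 0.05, adjusted p = 0.0422). Of the 9 luminal markers 4 were lower in Vehicle and 1 higher, FOLH1 (0.15). The summed level of these 9 was 3851 to 4082 CPM in siCtrl, 3306 to 3404 CPM in siXBP1, 3832 to 4020 CPM in Vehicle and 4183 to 4373 CPM with MKC8866, lowest in siXBP1. Their part in the mitotic genes' values was not tested.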

How the data were processed

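Stranded paired-end libraries were made by the authors from total RNA of LNCaP cells. Per the labels and the file header, reads were aligned with STAR 2.5.2a to hg38 and assigned to Ensembl genes with featureCounts 1.5.0. The deposited values are counts of fragments per gene, not normalized, and strand was not used in the counting, nor were multimapping fragments. Hence 10 of the 50 genes overlap a neighbour with over 1000 counts, and 15 have a copy or pseudogene in the table, which makes their counts uncertain (CDC20P1 had 3100 fragments against 55853 for CDC20, and KIF4B 967 against 24340 for KIF4A). The 10 with such a neighbour were ANLN, CCNA2, CDC25C, CENPA, FOXM1, KIF4A, KIF18A, KIF20A, NCAPG and NUF2.

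Each gene needed over 5 counts in 1 or more libraries of every group and was tested with edgeR 4.0.16 (R 4.3.3; TMM, quasi-likelihood F test, two-sided). Benjamini-Hochberg adjustment ran over all genes tested and calls were made under 0.05. Knockdown and inhibitor were fitted separately, the interaction in all 16 libraries. Standard errors came from the log2 fold change and F. Libraries were taken as paired where deviations from the group means correlated over 0.1 in every same-numbered pair. This held for Vehicle and MKC8866 (r from 0.102 to 0.379 across genes with a mean of at least 1 CPM) and not for the other groups. Vehicle and MKC8866 libraries of different numbers had r from -0.253 to 0.159. The biological coefficient of variation was 5.40% (knockdown) and 4.97% (inhibitor). Per-kb levels used the deposited gene length. The fits were tested on simulated data.

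The genes and lists were chosen with earlier results of these data known. Values in every library were given, per comparison, for the 6 genes called with the largest change (or with the smallest p where under 3 were called), for genes called against the majority and for genes over 3 scaled median absolute deviations from the median. CDKN1A, MYBL2, XBP1 and the 2 most changed of each other list could also be named. Alternatives were DESeq2 1.42.0, other size factors, filters and thresholds, the replicate block, one fit of all groups and each library left out. Promoters were read from a RefSeq table on GRCh38.p14, 250 bases before to 50 after each start.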

Additional observations from a re-analysis of the deposited data

Results flagged for a closer look

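In the knockdown experiment MKI67 had a siXBP1 library that stood away from its group, with 168 CPM in replicate 1 and 150 to 152 CPM in the others. It was the only such library among 64 sets of 4 values examined (15 genes and the summed level in 4 groups), where chance gives about 3.2.

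Of all 50 genes, 17 were called by the interaction test, where 23.3% of all 20357 genes tested were called. Among the 15 genes given with the value in every library, 10 were called. The interaction result was part of the rule that chose the 15, so 10 of 15 was partly fixed in advance. In these 10 the response to the knockdown differed from that to MKC8866 (edgeR, adjusted p under 0.05). The differences in log2 fold change were -1.41 for ANLN, -0.62 for CENPE, -0.24 for BUB1, 0.57 for KIF18A, 0.61 for CCNB1, 0.52 for CENPA, 0.36 for TOP2A, 0.22 for MKI67, 0.19 for KIF2C and 0.23 for CCNA2. The 2 experiments have separate controls and pretreatments, and these cannot be told apart from the kind of inhibition.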

How the results depend on the processing

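Counts and medians over the 50 genes were recomputed 209 times and stayed within 1.5 times the reported count, or within the spread between libraries for medians, in 197. With upper-quartile normalization the median log2 fold change rose to 0.13 for the knockdown and to 0.13 for the interaction, and that of all genes moved with it, to 0.06 and 0.05. The knockdown then had 28 of the 50 genes higher, and 4514 of all 21021 genes. Across all alternatives 17 to 28 genes were higher after the knockdown. In the interaction 7 to 20 were higher, where 1897 to 2782 of all genes tested were higher at 0.05. Leaving out 1 library gave a knockdown median log2 fold change of 0.0715 to 0.106. With MKC8866, 0 to 1 gene was then lower (527 to 833 over all genes tested). In the interaction 8 to 13 genes were higher (1897 to 2139 over all genes tested). In Vehicle 1 to 3 genes were lower than in siCtrl (1273 to 1690 over all genes tested). The 1 came without siCtrl replicate 2 (1273 of 20875 genes). With the replicate block MKC8866 gave 4 genes lower and 2 higher. At an adjusted p under 0.01 the interaction had 7 genes higher, and edgeR called 0 lower in Vehicle than in siCtrl, where all 3 genes had adjusted p between 0.0112 and 0.0240 and DESeq2 called 3 at 0.05. The share over all genes at 0.01 was not computed. The cause of the shifts in this paragraph was not tested.

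The block gave 4 lower and 21 higher for the knockdown (18.3% and 16.5% of all genes) and 3 and 18 for the controls (6.77% and 5.85%), where same-numbered libraries were not paired by the data (r from 0.000 to 0.068 and from -0.161 to 0.128), and 4 and 18 for the interaction (14.7% and 13%). Single-gene values kept their direction in every alternative, and 510 kept their call, 7 gained one and 12 lost one. KIF18A had the lowest count of the 50 genes (247 in a library) and the largest standard error in the interaction (0.12), and a limit set by depth was not tested beyond this.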
